A study of Ginkgo biloba with 2 samples.

Results

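The miRNA families miR160, miR167, miR390, miR393 and miR394, which act on auxin signalling in flowering plants, were examined in leaf small RNA of the gymnosperm tree Ginkgo biloba. Members were all names of the count table that carry exactly 1 of these 5 numbers after miR, whatever the species prefix, letter or arm. This gave 25 of 467 names: 6 of miR160, 13 of miR167, 5 of miR390 and 1 of miR394. No miR393 name was found in the table used here, so miR393 was not analysed. The study sequenced 1 library of mutant yellow leaves and 1 library of normal green leaves. The labels give the gold-coloured mutation no allele, describe its leaves elsewhere as striped in yellow and green, and state that leaves were picked from an adult tree, so the yellow library may hold green tissue. Both samples carry the tissue label leaf, while the extraction text speaks of cambium RNA. The tissue label was not checked here against cell type markers.

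Auxin acts by bringing Aux/IAA repressors to F-box receptors of the TIR1/AFB group, which leads to their breakdown and frees auxin response factors (ARFs) to act on genes. In Arabidopsis, miR160 cuts the transcripts of repressing ARFs, miR167 cuts those of activating ARFs (ARF6 and ARF8), and miR393 cuts those of the F-box receptors. miR390 acts indirectly: it cuts the non-coding TAS3 transcripts, from which small RNAs against ARF2, ARF3 and ARF4 are made. miR394 targets an F-box protein known as LCR that shapes leaves and the shoot meristem.

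The yellow library held 2793966 reads over all names and the green library 2084893. One read was worth 0.358 CPM (reads scaled to the column total) in yellow and 0.480 CPM in green leaves. How reads that fit several names were counted is not given, and names of a family may count the same reads. If they do, a family's number of distinct reads lies below the sum over its names. Because each leaf type has 1 library, there was no replicate check and no test between leaf types. Each interval below is a 95% exact (Clopper-Pearson) interval of the ratio of yellow over green CPM. It covers counting error only and compares these 2 libraries. In bulk leaf RNA, fewer cells of a type and less RNA per cell cannot be told apart.

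The 5 families made up a small part of the pool, and miR167 made up most of that part. Summed over names, the members held 0.184% of the reads in yellow and 0.259% in green leaves. miR167 accounted for 89.0% of the members' reads in yellow and 90.4% in green leaves, and miR160 for 10.5% in yellow and 8.61% in green leaves. miR390 and miR394 were near the lower end of what these libraries could measure. Reads were seen for 21 of the 25 names in yellow leaves and for 23 in green leaves, and 15 had at least 20 reads in both libraries together.

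**Figure D1:**
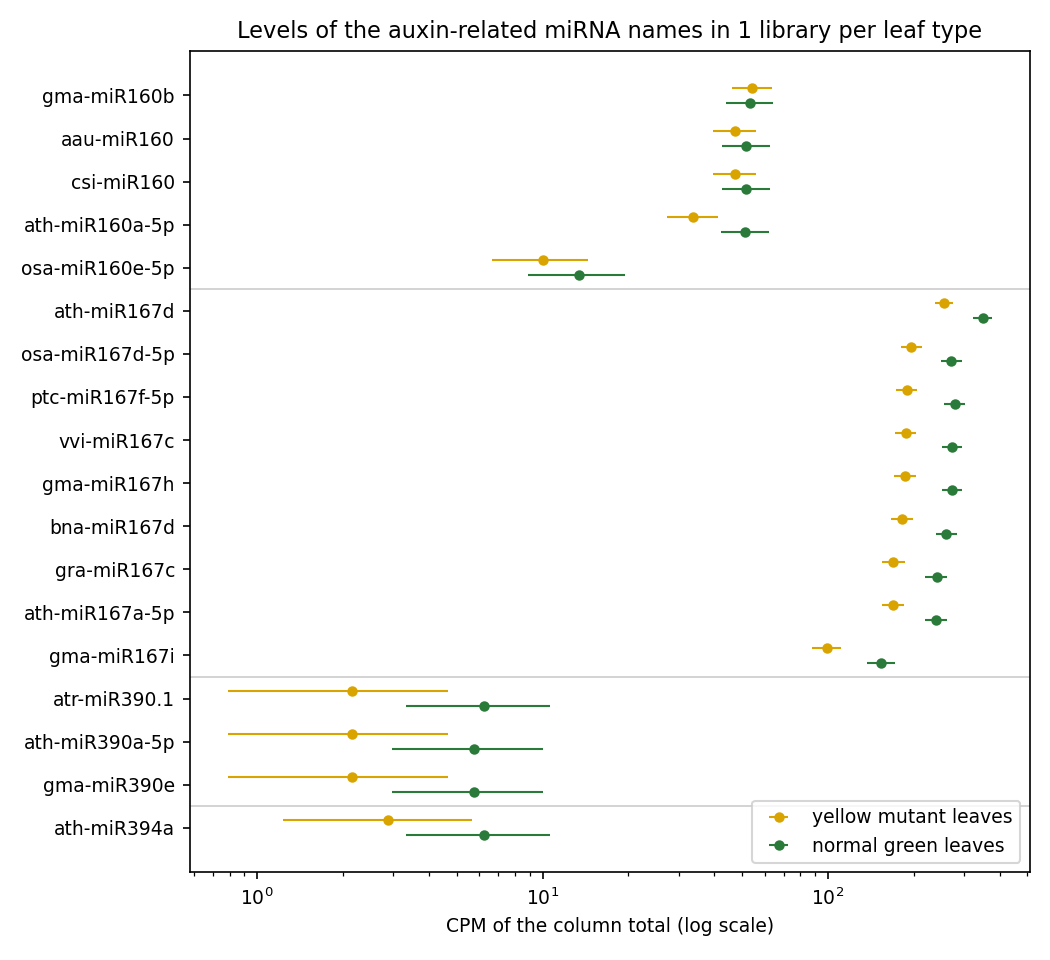
Level of each name with at least 18 reads in both libraries together, in CPM on a log axis. Points are the 1 yellow and the 1 green library, with 95% exact Poisson intervals that cover counting error only. The miR167 names lie highest, at 99.1 to 256 CPM in yellow and 154 to 348 CPM in green leaves, and the intervals of the miR390 and miR394 names are wide.

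With the column total, the intervals of the miR160 names included 1, except that of ath-miR160a-5p. Other scalings, given below, changed which intervals did so. The counts of the names spread more in yellow leaves than in green leaves. The most-read name, gma-miR160b (named from soybean), had 152 reads or 54.4 CPM in yellow leaves, against 111 reads or 53.2 CPM in green leaves. Its ratio was 1.02 (0.795 to 1.32). The names aau-miR160 (Acacia) and csi-miR160 (sweet orange) had equal counts, 132 reads in yellow and 108 in green leaves, with a ratio of 0.912 (0.702 to 1.19). These counts may be of the same reads.

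With the column total, the Arabidopsis name ath-miR160a-5p had the lowest ratio of the miR160 names with at least 20 reads. Its interval overlapped those of the others, and differences between names of the family were not tested. It had 94 reads or 33.6 CPM in yellow leaves, against 107 reads or 51.3 CPM in green leaves, a ratio of 0.656 (0.492 to 0.873). The 4 most-read miR160 names thus lay between 94 and 152 reads in yellow leaves, a 1.62-fold range. In green leaves they lay between 107 and 111 reads, a 1.04-fold range. Over all 5 names with at least 20 reads, the range was 5.43-fold in yellow and 3.96-fold in green leaves. gma-miR160b exceeded ath-miR160a-5p by 58 reads in yellow and by 4 in green leaves. Whether one name's reads are contained in the other's was not tested.

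The remaining miR160 names had few reads. osa-miR160e-5p (rice) had 28 reads in each library, which is 10.0 CPM in yellow and 13.4 CPM in green leaves, with a ratio of 0.746 (0.426 to 1.31). The moss name ppt-miR160b had 1 read in yellow and 2 in green leaves.

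The miR167 names formed a narrow band below the green level when scaled by the column total. Over the 9 names with at least 20 reads the ratio ran from 0.644 to 0.735 with a median of 0.701, and each of the 9 intervals lay below 1. ath-miR167d, the most-read, had 715 reads or 256 CPM in yellow leaves, against 726 reads or 348 CPM in green leaves. Its ratio was 0.735 (0.662 to 0.816), and it ranked at position 94 of 467 names in both libraries. The raw counts of this name were thus nearly equal in libraries whose totals differ, which makes its share of the reads lower in yellow leaves. The size of its ratio depends on the scaling, as given below.

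Several of the miR167 names tracked each other to within a few reads. vvi-miR167c (grape) had 523 reads in yellow leaves and 568 in green leaves, and gma-miR167h had 522 in yellow and 568 in green leaves. Their ratios were 0.687 (0.609 to 0.775) and 0.686 (0.608 to 0.774). gra-miR167c (cotton) and ath-miR167a-5p differed by 1 read in yellow and 3 reads in green leaves, at 474 and 473 reads in yellow and 501 and 498 in green leaves. Their ratios were 0.706 (0.621 to 0.802) and 0.709 (0.624 to 0.805). The names of each pair may count the same reads. Each name still enters the numbers of intervals and calls and the medians given here, so these do not count separate measurements.

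The other miR167 names lay in the same range. osa-miR167d-5p had 547 reads in yellow leaves and 565 in green leaves, a ratio of 0.722 (0.641 to 0.814), and ptc-miR167f-5p (poplar) had 527 in yellow and 580 in green leaves, a ratio of 0.678 (0.601 to 0.764). bna-miR167d (oilseed rape) had 509 reads in yellow leaves and 542 in green leaves, a ratio of 0.701 (0.620 to 0.792). gma-miR167i had the fewest reads of the 9, with 277 in yellow and 321 in green leaves, and the lowest ratio, 0.644 (0.546 to 0.759). The 4 other miR167 names were nearly empty: sly-miR167b-5p had 0 reads in yellow leaves and 2 in green leaves, gma-miR167k and ppt-miR167 each had 0 in yellow and 1 in green leaves, and ptc-miR167h-5p had 1 in yellow and 0 in green leaves. A count of 0 allows up to 1.07 CPM in the yellow and 1.44 CPM in the green library, taking 3 counts as the limit.

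miR390, the trigger of TAS3 processing, was scarce in both libraries. atr-miR390.1 (Amborella) had 6 reads or 2.15 CPM in yellow leaves, against 13 reads or 6.24 CPM in green leaves, a ratio of 0.344 (0.107 to 0.971). ath-miR390a-5p and gma-miR390e had equal counts, 6 reads in yellow and 12 in green leaves, with a ratio of 0.373 (0.115 to 1.07). With 18 or 19 reads each, these 3 names stood just under the minimum of 20. They may count the same reads, and each was added into the miR390 sum given below. ptc-miR390d-3p, from the other arm of the hairpin, had 0 reads in yellow leaves and 4 in green leaves, and ppt-miR390c-5p had 1 in yellow and 0 in green leaves.

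miR394 was represented by ath-miR394a alone. It had 8 reads or 2.86 CPM in yellow leaves, against 13 reads or 6.24 CPM in green leaves. The ratio of 0.459 passed the 2-fold size, but its interval of 0.165 to 1.20 included 1. Its interval thus holds ratios on both sides of the 2-fold limit.

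By the rule of size used here (at least 20 reads in both libraries together, at least 2-fold, interval without 1), 0 of the 15 members with enough reads were lower and 0 were higher in yellow leaves. Of all 306 names with at least 20 reads, 24.8% were lower and 12.1% higher by that rule with the column total. That balance changed with the library scaling: it was 16.3% lower and 20.9% higher with TMM (trimmed mean of M values) and 17.6% lower and 19.6% higher with median of ratios, while the members' counts were 0 in both directions under these too. No p-value was computed for any of them. With a limit of 1.5-fold, 2 of the 15 members, ath-miR160a-5p and gma-miR167i, were lower and 0 were higher, where 34.3% of all names were lower and 18% higher. With no minimum of reads, atr-miR390.1 alone of the 25 members was lower and 0 were higher, against 17.6% lower and 9.85% higher of all 467 names. These 3 calls were made with the column total and were lost under each of the 4 other scalings, combinations tried after the data had been seen. The ratio of atr-miR390.1 was then 0.380 to 0.476, with intervals that included 1, and those of ath-miR160a-5p and gma-miR167i were at least 0.723 and 0.710, short of the 1.5-fold limit. The median log2 ratio of the 15 members was -0.50, and that of all 306 names was -0.43. The miR160 names had a median of -0.13 and the miR167 names one of -0.51.

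**Figure D2:**
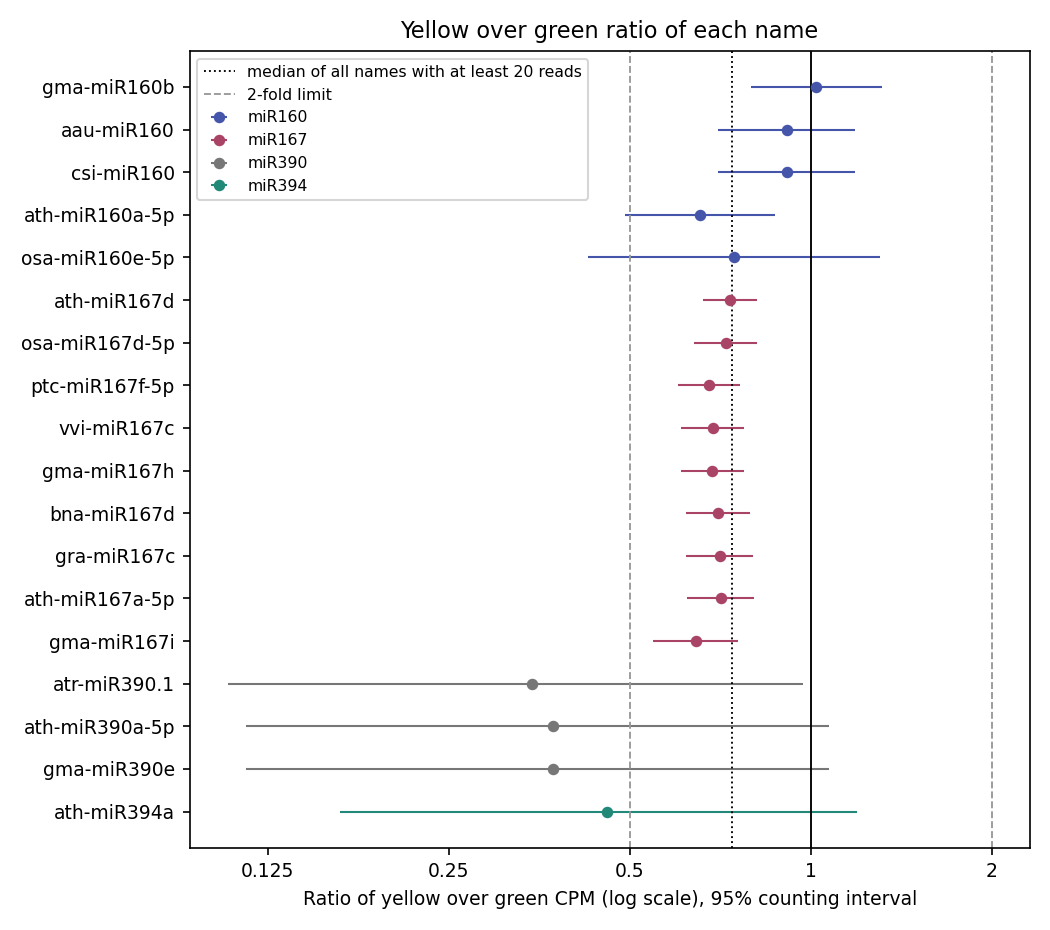
Ratio of yellow over green CPM on a log axis for each name with at least 18 reads in both libraries together, with its 95% counting interval. The solid line marks 1, the dotted line the median ratio of all 306 names with at least 20 reads (0.740), and the dashed lines the 2-fold limit. The 9 miR167 names sit at 0.644 to 0.735, close to the median of all names, and 4 of the 5 miR160 names lie to the right of them.

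How the libraries were scaled changed which of the members' intervals left out 1. Each alternative scaling multiplied all ratios by the same factor, 1.10 for the total of miRBase names, 1.20 for the total without the most abundant name, 1.34 for median of ratios and 1.38 for TMM. The 9 miR167 intervals stayed below 1 with the first 2 of these scalings, and none lay below 1 with median of ratios or TMM. With TMM the miR167 ratios ran from 0.890 to 1.02, and with median of ratios from 0.863 to 0.985.

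For miR160 the scaling changed which name stood out. With the column total, the interval of ath-miR160a-5p lay below 1, and with the total of miRBase names it did so too. With TMM and with median of ratios it included 1, while that of gma-miR160b lay above 1, at a ratio of 1.41 with TMM and 1.37 with median of ratios. No interval of a miR160 name left out 1 with the total without the most abundant name. ath-miR394a stayed below 1 under each of the 5 scalings, at 0.459 to 0.635, and its interval included 1 under each.

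**Figure D3:**
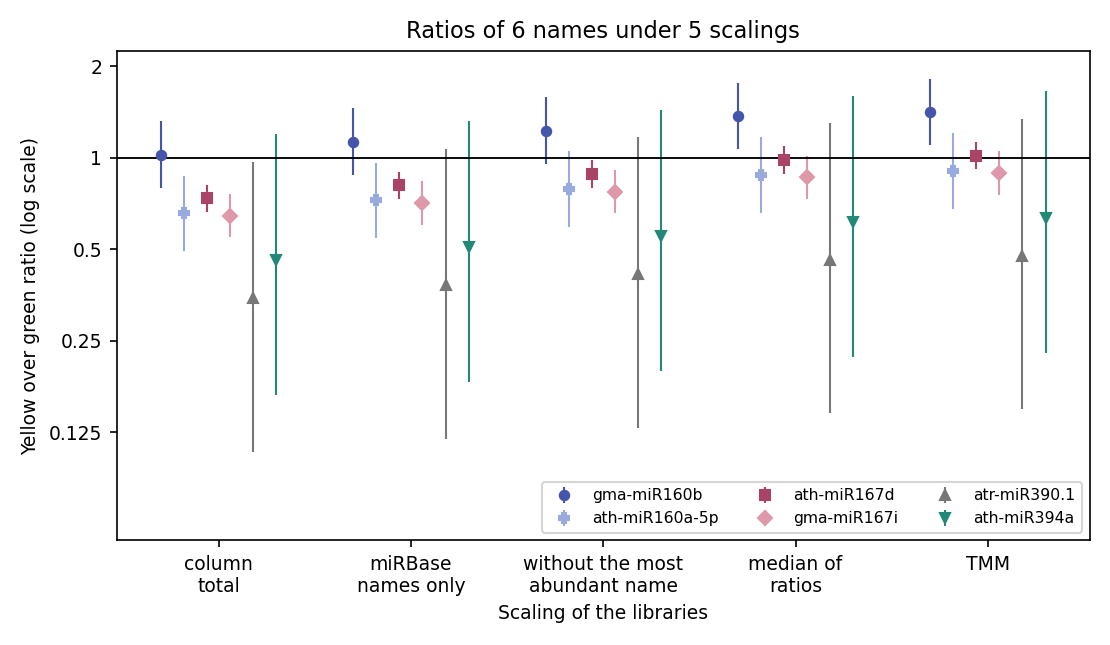
Yellow over green ratio, on a log axis, of 6 names under 5 scalings of the libraries, with 95% counting intervals. The ratio of ath-miR167d moves between 0.735 with the column total and 1.02 with TMM, and that of gma-miR160b between 1.02 and 1.41.

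Families can also be set against each other inside a library, where the scaling cancels. For this, 6 pairs among the most-read names of the 4 families were formed, and 3 further miR160 names were set against ath-miR167d, after the values had been seen. gma-miR160b had 0.213 reads per read of ath-miR167d in yellow and 0.153 in green leaves. Relative to that name it thus stood 1.39-fold higher in yellow leaves (1.06 to 1.83). Set against atr-miR390.1, gma-miR160b had 25.3 reads per read in yellow and 8.54 in green leaves, 2.96-fold higher in yellow leaves (1.01 to 9.79). That value rests on 6 reads of atr-miR390.1 in yellow and 13 in green leaves, below the minimum of 20. No other miR160 name was set against a miR390 name, and no other miR390 name was used. The intervals of the other 4 pairs included 1.

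The first of these shifts depended on the miR160 name taken. csi-miR160 relative to ath-miR167d gave 1.24 (0.935 to 1.65), osa-miR160e-5p gave 1.02 (0.573 to 1.80), and ath-miR160a-5p gave 0.892 (0.656 to 1.21). The balance between miR160 and miR167 was thus higher in yellow leaves by gma-miR160b while the intervals of the other 3 names included 1.

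The authors' deposited table of predicted targets links the 25 names to 68 genes, 54 of them with a protein match. It holds no expression values, so whether any target changed was not measured. miR160 had 14 target genes, miR167 had 21, miR390 had 27 and miR394 had 6. No gene was listed for 2 of these families. Among the 68 genes, 6 matched ARFs, 2 matched F-box proteins and 2 carried another auxin word. Receptor kinases, a group formed after the matches were seen, made up 16, another 28 had other matches, and 14 had none. The share of receptor kinases among all 2713 predicted target genes is not given here.

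**Figure D4:**
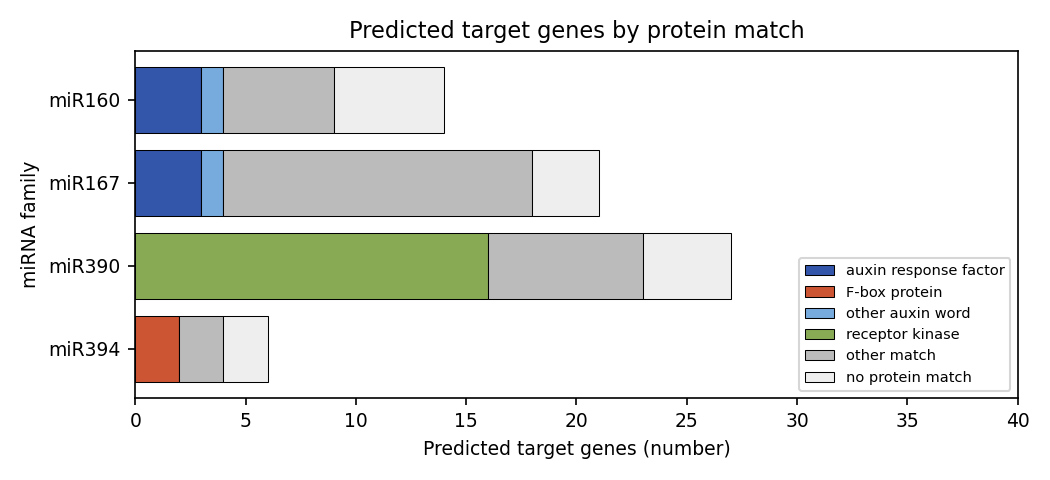
Number of predicted target genes of each family, split by the protein match in the authors' deposited table. ARF matches appear under miR160 and miR167 with 3 genes each, and F-box matches under miR394 with 2 genes. Receptor kinases fill 16 of the 27 genes of miR390, and their share among all predicted target genes is not given here.

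The ARF targets of miR160 and of miR167 were different genes with different matches. In the authors' deposited table, Gb_25507, Gb_33804 and Gb_39786 all had rice Auxin response factor 18 as their match with an E value listed as 0, and rice ARF18 is a known miR160 target. Each was listed for the same 5 of the 6 miR160 names, the exception being aau-miR160. Of those 5 names, 4 had at least 20 reads.

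The 3 ARF targets of miR167 matched Auxin response factor 6, an activating ARF of flower and root growth. In the authors' deposited table Gb_26165 and Gb_32864 matched the Arabidopsis protein with E values of 1.02e-77 and 4.42e-49, and both were listed for bna-miR167d, vvi-miR167c and gma-miR167k. Gb_39686 matched the rice protein with an E value of 2.88e-06, the weakest of the 6 ARF matches, and was listed for bna-miR167d, ptc-miR167f-5p and gma-miR167k. The ratios of the listed names with enough reads were 0.701, 0.687 and 0.678, while gma-miR167k had a single read in green leaves. ath-miR167d and osa-miR167d-5p, the names with most reads, were listed for none of the ARF6 genes.

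The F-box targets belonged to miR394. In the authors' deposited table Gb_01973 and Gb_17686 both matched Arabidopsis F-box only protein 6 (FBX6), the protein known as LCR, with E values of 4.16e-162 and 1.62e-144. Gb_01973 was listed for ath-miR394a alone. Gb_17686 was also listed for 8 other names, among them 7 of miR396. The table held 25 F-box genes in all, and the other 23 were listed for names outside the 5 families.

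**Figure D5:**
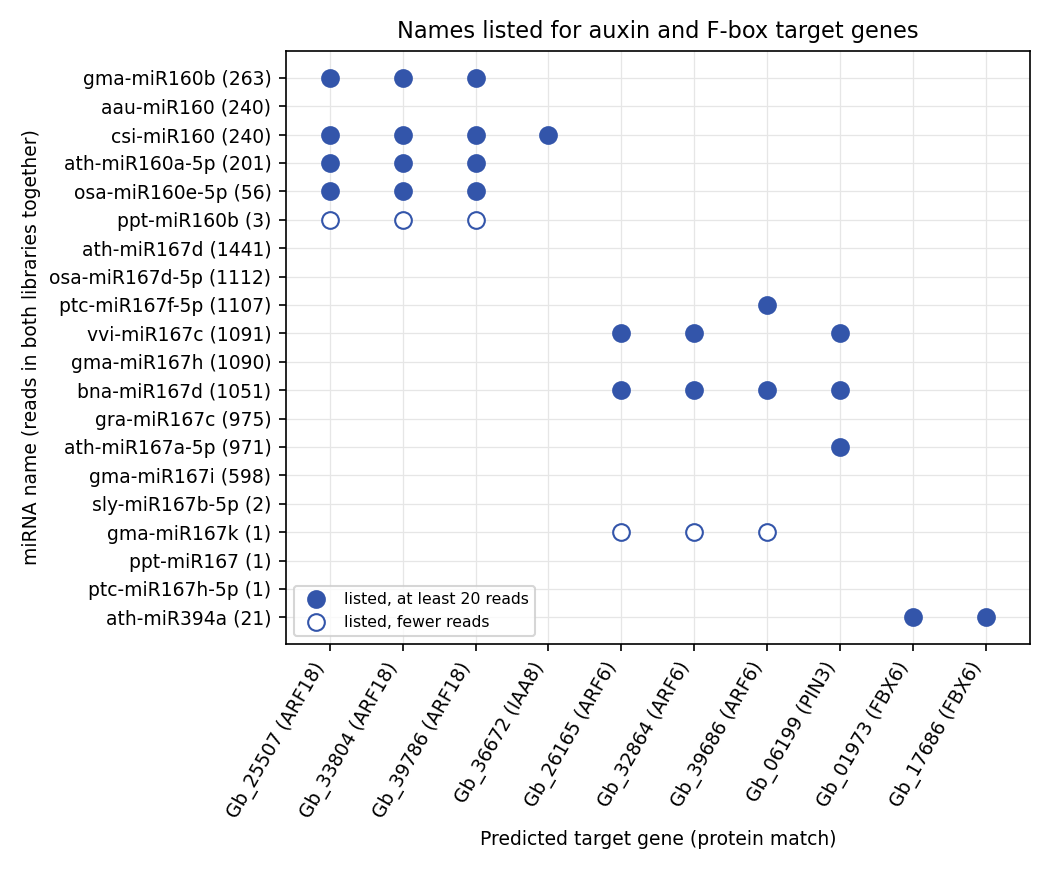
Names of miR160, miR167 and miR394 (rows, with their reads in both libraries together) listed for each ARF, Aux/IAA, PIN or F-box target gene (columns, with the protein match). Filled points are names with at least 20 reads and open points names with fewer. The miR160 names share the 3 ARF18 genes, with aau-miR160 as the exception, while 4 of the 13 miR167 names reach an ARF6 gene.

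Besides the ARFs, each of miR160 and miR167 had 1 further auxin gene. Gb_36672, listed for csi-miR160, matched the Aux/IAA repressor IAA8 (E value 1.72e-34 in the authors' deposited table). Gb_06199, listed for bna-miR167d, vvi-miR167c and ath-miR167a-5p, matched the auxin efflux carrier PIN3 (E value listed as 0), which moves auxin out of cells.

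Genes without an ARF, F-box or other auxin match were also shared by several names of a family. For those with no protein match, a place inside or outside the auxin pathway cannot be told. In the authors' deposited table Gb_06762, with no protein match, was listed for 10 of the 13 miR167 names. Gb_02958 was listed for 8 of them, as was Gb_20599, which had no match. The match of Gb_02958 was guanine deaminase of the bacterium Escherichia coli (E value 1.90e-149), an enzyme of purine breakdown. Gb_10302 matched the RNA helicase RH14 and was listed for 7. Gb_02658, a second match of the Escherichia coli enzyme (E value 3.45e-16), was listed for 4. For miR160, Gb_33532 with no match was listed for 3 names. Gb_15103 and Gb_20773, both matching cyclin-dependent kinase G-2, and Gb_03314 and Gb_33533, with no match, were listed for 2 names each.

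The miR390 targets held no ARF and no F-box protein. In the authors' deposited table Gb_23687 and Gb_40451 were listed for all 5 miR390 names and Gb_28590 and Gb_28591 for 4, and none of these 4 genes had a protein match. Whether any of them is a TAS3 transcript was not tested, since no sequence was used here. Gb_00471, a leucine-rich repeat receptor kinase match, was also listed for 4 names. The 16 receptor kinase matches included Gb_00189 and Gb_15684 (BAM1, a receptor of meristem peptides), Gb_38888 (TDR, a receptor of vascular development) and Gb_02803 (HSL1), named here after their matches were seen. All of these listings rest on names with fewer than 20 reads.

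The remaining miR394 targets were Gb_40907, matching the protein RBL, Gb_14740, matching a putative ribonuclease H protein, and Gb_25498 and Gb_31711 with no match. Gb_31711 was also listed for 10 names outside the 5 families, 9 of them of miR159.

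Across the authors' deposited table, 27 target genes matched auxin-related proteins. Of these, 8 were listed for the 5 families, namely 6 of the 7 ARFs, the Aux/IAA gene and 1 of the 7 transport genes. The other 19 were listed for other names. They included the single F-box receptor match, Gb_14175 (Transport inhibitor response 1-like protein), a kind of gene that miR393 targets in Arabidopsis. It was listed for novel_244, a name with only a number from the authors, which had 9 reads in yellow leaves and 8 in green leaves (ratio 0.840, 0.288 to 2.50). Gb_18738, matching ARF2, was listed for novel_277, with 16 reads in yellow and 5 in green leaves (ratio 2.39, 0.836 to 8.33).

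Of the 28 other names listed for these 19 genes, 16 had at least 20 reads. With the column total 2 of the 16 were lower, 1 was higher and 13 were neither, beside 24.8% lower and 12.1% higher of all 306 names. The number higher depended on the scaling. It was 4 with the total of miRBase names, beside 14.7% of all 306 names. It was 7 with each of the 3 other scalings. Beside it stood 16.3% of all names without the most abundant name, 19.6% with median of ratios and 20.9% with TMM. The 7 were novel_113, novel_213, novel_277 and the miR396 names mdm-miR396a, gma-miR396b-3p, ptc-miR396e-3p and zma-miR396g-3p, which may count the same reads in part. The same 2 names were lower under all 5, where 16.3% to 24.8% of all names were lower. novel_213, listed for Gb_14657 and Gb_14667, which match the auxin-conjugating enzyme GH3.5, was 3.48-fold higher in yellow leaves (1.85 to 7.14), with 56 reads in yellow and 12 in green leaves. novel_304, listed for the PIN3 match Gb_03217, had 42 reads in yellow leaves and 92 in green leaves, a ratio of 0.341 (0.231 to 0.496). ppt-miR1030a, listed for Gb_03145, which matches the auxin transport protein BIG, had 17 reads in yellow leaves and 48 in green leaves, a ratio of 0.264 (0.143 to 0.468). The 7 GH3 genes of the table were all listed for names outside the 5 families.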

How the data were processed

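The authors deposited a table of raw read counts for each miRNA name, in which every library has its own column. Bowtie, a short-read aligner, is named without a version in the submitters' processing notes. Not given in the sources used here are the genome build, the miRBase release, the counting rule and the target prediction tool. The target table lists, as deposited by the authors, genes with the names predicted to bind them and a best protein match with its E value. miRNA sequences and gene positions were not used here.

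Counts were scaled to the column total (CPM). The ratio of yellow over green CPM was formed with the exact 95% interval of the yellow share of a name's reads (SciPy 1.17.1). Intervals and the floor of 3 counts cover counting error only, and they treat reads as independent. PCR reads that carry no molecular identifiers do not stand for independent molecules. The intervals may thus be too narrow, and the floor too low, even for counting error. The interval and the size rule were run on simulated Poisson counts with known ratios and a known scaling factor. This checked the code only. The simulated counts held no spread between libraries, no unknown scaling and no reads shared by names, so they cannot show how reliable the calls are. Calls were made on the whole table. TMM factors came from edgeR 4.0.16 and median-of-ratios factors from DESeq2 1.42.0, and neither was used for a test. In medians, a library at 0 reads entered at 3 counts.

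Values were given for each name with at least 20 reads and each with 0 reads in a library, for each ARF and F-box target, and for up to 5 other targets per family. The members, lists and rules were chosen with earlier results of these data known.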

Additional observations from a re-analysis of the deposited data

How the results depend on the processing

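The members' calls gave 0 lower and 0 higher names with the column total, with the 4 other scalings, with a minimum of 50 reads and with equal counts taken once. With a minimum of 50 reads 27.2% of all 246 names were lower and 11% higher. With equal counts taken once, 24.7% of 292 names were lower and 12% higher. That setting removed exact ties only, so names whose counts differ by a few reads all stayed in. Of all 306 names, 20.9% were lower and 16.3% higher without the most abundant name. With miRBase names only, 23.2% were lower and 14.7% higher. The number of lower members was 2 with a 1.5-fold limit and 1 with no minimum of reads. It was 0 with either under each other scaling, alternatives chosen after seeing the data. Under those scalings 23.5% to 31.4% of all 306 names were lower with the 1.5-fold limit. With no minimum of reads, 11.3% to 16.3% of all 467 names were lower under them. The ratio of miR160 sums was 0.867 with the column total, 1.20 with TMM, 1.16 with median of ratios, 1.04 without the most abundant name and 1.02 by the most-read name. That of miR167 was 0.700 with the column total, 0.967 with TMM, 0.937 with median of ratios, 0.841 without the most abundant name, 0.772 with miRBase names only and 0.735 by the most-read name. The ratios of miR390 sums (0.346) and of miR394 (0.459) moved by less than their counting intervals under each alternative, and those intervals are wide. Of the 15 names with at least 20 reads, 13 moved beyond their interval with TMM, 13 with median of ratios, 9 without the most abundant name and 0 with miRBase names only. The scalings multiply each ratio by a common factor.

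Target counts depended on the names admitted. With names of at least 20 reads, receptor kinase genes were 0 in place of 16, since no miR390 name has 20 reads. Other matches were 19 in place of 28. Lost from them were the miR390 genes and the miR167 genes Gb_23061 and Gb_39294, listed for ppt-miR167 alone. With genes listed for at least 2 names of a family, F-box genes were 0 in place of 2. That was fixed in advance: no gene of miR394 could remain, since this family has 1 name. Other auxin genes were 1 in place of 2 and other matches 12 in place of 28. The 6 ARF genes stayed under both. No paired analysis was possible because each leaf type has 1 library.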

Other observations

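Some names with equal or nearly equal counts shared few or no predicted targets. aau-miR160 and csi-miR160 had equal counts in both libraries, while the authors' deposited table listed 4 genes for aau-miR160 and 8 for csi-miR160, with 0 shared. vvi-miR167c and gma-miR167h differed by 1 read in yellow and 0 reads in green leaves, and shared 0 of their 7 and 2 listed genes. gma-miR167h and gma-miR167i shared no listed gene with 11 of the 12 other miR167 names, and shared 2 genes with each other. gra-miR167c and ath-miR167a-5p, at 975 and 971 reads in both libraries together, shared 1 of their 3 and 6 genes. ath-miR390a-5p and gma-miR390e, with equal counts, shared 10 of their 18 and 15 genes. In all, 25 of 78 pairs of miR167 names and 3 of 15 pairs of miR160 names had no listed gene in common, against 0 of 10 pairs of miR390 names.

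Some names with few reads had long lists. ppt-miR390c-5p, with 1 read in both libraries together, had 17 listed genes, and ath-miR167d, with 1441 reads, had 4. bna-miR167d had the longest list of the miR167 names, with 14 genes, and held each of the 7 genes listed for osa-miR167d-5p and each of the 7 listed for vvi-miR167c.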
